A study of Homo sapiens with 20 samples.

Results

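The data described here are the footprints of initiation complexes that hold eIF3, from HEK 293T cells given DMSO or the compound i14G1-12. They were chosen by their labels, as the libraries immunoprecipitated through eIF3, and make up 4 of the 20 libraries of the series. HEK 293T is a transformed human embryonic kidney line, labelled wild type here. Per the labels, 2 libraries came from cells given the solvent DMSO for 1 h, and 2 from cells given 5 µM i14G1-12 for 1 h. Cells were fixed with formaldehyde, the lysate was cut with RNase I, and complexes were fractionated by ultracentrifugation before the antibody step. The other libraries were made in the same way through HA-tagged eIF1, eIF4G1 or HA-tagged eIF2a. No library of the series measured mRNA levels in the cells. A change in the level of an mRNA and a change in its binding by eIF3 can therefore not be told apart here. The labels do not say whether the libraries of a group came from separate cultures, so the p-values measure the spread between libraries, which may be technical.

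eIF3 is the largest of the eukaryotic initiation factors, a complex of many subunits that binds the small ribosomal subunit. It helps to load the initiator tRNA and the mRNA, and it bridges the subunit to eIF4G, the scaffold of the cap-binding complex. eIF1 sits near the P site of the small subunit and guards the choice of the start codon. The series title presents the compound as an inhibitor of the pair eIF1 and eIF4G1. An antibody to eIF3 recovers mRNA in complexes to which eIF3 is bound, among them those at the scanning and start-recognition stages.

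Genes are named by their Ensembl ID, because the files do not pair IDs with symbols and 0 of the 19029 IDs matched the reference table. The functions of the genes, and marker genes of the cell line or of other cells, were therefore not examined. Promoter sequences could not be tied to the IDs for the same reason, and none is printed.

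Depth was uneven. The i14G1-12 libraries held 276877 and 239495 counts (libraries 1 and 2), and the DMSO libraries 582437 and 59179. A gene with 0 counts could still have been present at up to 5.15 CPM (counts scaled to a common library total) in DMSO 1 and at up to 50.7 CPM in DMSO 2, taking 3 counts as the limit that a count of 0 allows. Only 1448 genes had 10 or more counts in DMSO 2, against 8719 in DMSO 1, 6050 in i14G1-12 1 and 5581 in i14G1-12 2. These limits cover counting error only.

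The eIF3 libraries numbered 2 stood apart from the remaining libraries of the series in the mRNAs they held. Shares by length are given of the counts on the 6300 genes tested in the eIF3 libraries, split into 5 equal groups. Genes with short counted sequences, of 276 to 1872 nt, took 23.9% of counts in DMSO 2 and 21.03% in i14G1-12 2, against 36.0% in DMSO 1 and 37.2% in i14G1-12 1. Over the 16 libraries of eIF1, eIF4G1 and eIF2a this share lay between 35.0% and 43.5%. Genes with the longest sequences, of 6449 to 34626 nt, showed the opposite order, with 20.5% of counts in DMSO 2 and 21.7% in i14G1-12 2 but 12.9% in each library numbered 1. The split therefore followed the library number and not the treatment. Values pooled over the 4 libraries include this difference.

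**Figure D1:**
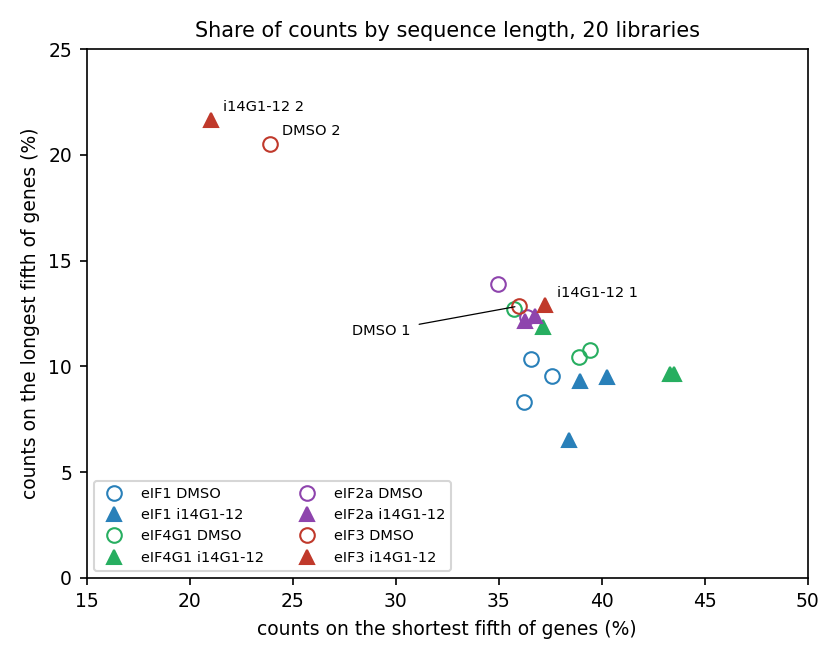
Each point is 1 of the 20 libraries. The x axis is the share (%) of counts on the shortest of 5 equal length groups of genes, and the y axis that on the longest. Shares are of the counts on the 6300 genes tested in the eIF3 libraries. Open circles are DMSO, filled triangles i14G1-12, and colours mark the immunoprecipitation. The eIF3 libraries numbered 2 lie alone at the upper left, at 21.03% and 23.9% on the x axis, while the eIF3 libraries numbered 1 lie among the others.

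The same split was seen gene by gene. Among the 1424 genes with 10 or more counts in all 4 libraries, the log2 difference between the 2 DMSO libraries had an SD across genes of 0.96, and that between the 2 i14G1-12 libraries an SD of 0.99. Between i14G1-12 and DMSO it was smaller when libraries of the same number were set against each other, at 0.54 for number 1 and 0.62 for number 2. More than a 2-fold difference was seen for 32.7% of these genes between the DMSO libraries, but for 6.74% between i14G1-12 1 and DMSO 1 and for 11.2% between i14G1-12 2 and DMSO 2. Whether equal numbers mark a shared preparation is not given in the labels, and its part in the results was not tested.

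The main comparison asked which mRNAs changed in eIF3 complexes after i14G1-12. The answer depended on how the spread between libraries was estimated, and 1 rise passed the test with the libraries taken as plain replicates. Of 6300 genes tested, 1 rose (0.0159% of those tested) and 0 fell by edgeR's quasi-likelihood test at an adjusted p under 0.05. Before adjustment, 110 genes had a p under 0.05, 78 with higher and 32 with lower values, against 315 expected if no gene differed. DESeq2 called 3 genes higher and 0 lower. The median SE of a log2 fold change was 0.68 over the genes tested, so modest changes could not be resolved by this fit. It had 2 libraries in each group, and its spread includes the difference between library numbers described above. The 110 genes with a p under 0.05 come from the same fit. Counts with the library number in the fit are given in the closing section.

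The gene that rose was ENSG00000120738, with a counted sequence of 3137 nt. It held 2 counts in DMSO 1 and 1 in DMSO 2, against 139 in i14G1-12 1 and 59 in i14G1-12 2. On the TMM-scaled CPM scale these counts were levels of 3.83 and 17.5 in DMSO and of 602 and 274 in i14G1-12. Both treated libraries lay far above both controls. For number 2 the control was the shallow DMSO 2, with its 1 count. The log2 fold change was 6.13 (SE 0.97, 95% interval 4.10 to 8.17, edgeR adjusted p = 0.0397). Because the controls held only 3 counts in all, the ratio of summed counts, 82.0 per count sequenced, had an exact counting interval of 27.7 to 401. This interval covers counting error only and leaves out the spread between libraries. Without DMSO 1, which leaves the shallow library as the only control, the log2 fold change was 4.59 and was no longer called (edgeR adjusted p = 0.999). Scaled by total counts in place of TMM, it was 6.04 (edgeR adjusted p = 0.0557).

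Among genes with 10 or more counts in both treated libraries, ENSG00000177606 had the second largest gap between the groups, and did not pass the test in the 4 libraries. Its level was 922 CPM in DMSO 1 and 648 in DMSO 2, and 4983 and 5223 CPM in i14G1-12 1 and 2. The treated libraries were close to each other and both above both controls, and all 4 values rest on 37 counts or more. It took 0.0828% and 0.0625% of counts in the DMSO libraries and 0.416% and 0.470% in the treated ones. The log2 fold change was 2.69 (SE 0.73, 95% interval 1.15 to 4.23, edgeR adjusted p = 1.000). This gene was called under 3 of the other settings tried, among them DESeq2 (adjusted p = 0.000996) and 1 edgeR fit to all 20 libraries (log2 fold change 2.72, adjusted p = 0.00593), where the spread is estimated over every group. That fit called 5 genes higher and 0 lower in eIF3 complexes.

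No gene with lower values after i14G1-12 passed the test. Among genes with 10 or more counts in both DMSO libraries, which leaves out wider gaps at lower counts, the widest gap in that direction was that of ENSG00000158864, at 218 CPM in DMSO 1, 263 in DMSO 2, 99.6 in i14G1-12 1 and 41.7 in i14G1-12 2. Its groups did not overlap, but its treated libraries differed by more than its controls, and i14G1-12 2 held only 9 counts of it. The log2 fold change was -1.74 (SE 0.66, 95% interval -3.13 to -0.34, edgeR adjusted p = 1.000). ENSG00000140990 followed under the same count limit, a short sequence of 675 nt at 295 and 280 CPM in DMSO 1 and 2 and at 152 and 60.3 CPM in i14G1-12 1 and 2. Its log2 fold change was -1.44 (SE 0.65, 95% interval -2.80 to -0.07, edgeR adjusted p = 1.000).

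**Figure D2:**
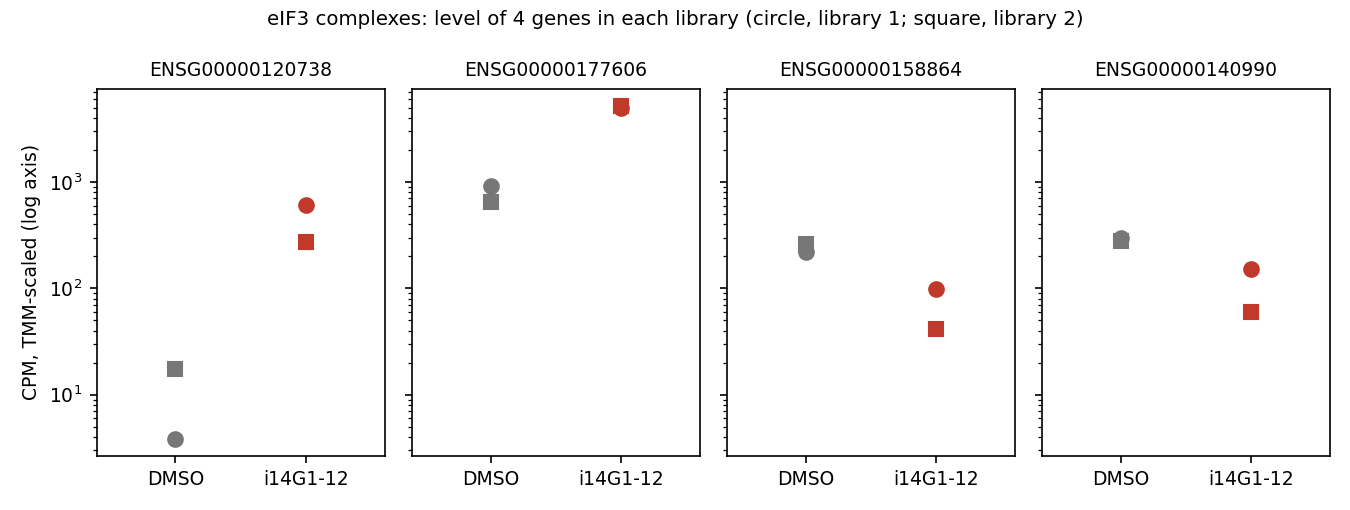
Level of 4 genes in each eIF3 library, in TMM-scaled CPM on a log axis, with DMSO in grey and i14G1-12 in red, circles for library 1 and squares for library 2. ENSG00000120738 and ENSG00000177606 are higher in both treated libraries, and ENSG00000158864 and ENSG00000140990 lower, without overlap, but among these ENSG00000120738 alone passed the test.

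Over all genes, both i14G1-12 libraries lay above both DMSO libraries for 786 of 6300 genes (12.5%) and below both for 851 (13.5%). A limit of at least 10 counts in each library of the higher group left 219 genes in the second set. It removed none of the 786 in the first. The filter for tested genes asked for a CPM level equal to 10 counts at the median depth, which any 2 libraries could meet. Genes of the first set met it through the treated libraries, where they were higher. In the shallow DMSO 2 that level is reached with fewer counts, so the 786 and 851 genes rest on unlike counts. The set of 219 was smaller because DMSO 2 had to hold the 10 counts. Of the tested genes 1446 met this, against 4577 for the treated libraries. The median sequence length was 4045 nt among the 786 and 2901 nt among the 219, against 3875 and 3924.5 nt among the genes that could have entered each set. Values for these genes are a description of 4 libraries, since among them ENSG00000120738 alone passed the edgeR test on these libraries.

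The direction of single genes was only partly shared between the pairs of libraries. Across the 1424 genes with 10 or more counts in all 4 libraries, the log2 ratio of i14G1-12 1 over DMSO 1 correlated with that of i14G1-12 2 over DMSO 2 at a Pearson r of 0.41. The ratios had the same sign for 895 genes, or 62.9%. Both values are taken over genes, which do not act as replicates, and the 2 ratios share no library.

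The genes that passed the test in the other immunoprecipitations were then followed in the eIF3 libraries. These lists were chosen in libraries other than those of eIF3, but with results for eIF3 already known, so only counts and medians are given. Of the 25 genes called higher in eIF4G1 complexes, 20 (80%) had both treated eIF3 libraries above both eIF3 controls, against 12.5% of all genes tested, and 0 had both below. Their median log2 fold change in eIF3 was 1.41, against 0.02 for all genes tested, and it was 1.41 when ENSG00000120738 was left out. By pair of libraries, the median log2 ratio was 1.58 for number 1, with 25 of 25 higher, against 3157 of all 6300 genes tested. For number 2 it was 1.26, with 24 of 25 higher, against 3212 of the 6300. The median level of the 25 genes was 467 and 210 CPM in DMSO 1 and 2, and 1268 and 547 CPM in i14G1-12 1 and 2. Over all genes tested it was 82.3 and 87.6 CPM in DMSO 1 and 2, and 82.3 and 88.1 CPM in i14G1-12 1 and 2. The share of 12.5% is therefore not one among genes of like level. In all 4 libraries, 13 of the 25 genes had 10 or more counts, against 1424 of the 6300. Of these 25 genes, 13 reached an unadjusted p under 0.05 in eIF3, against 110 of all 6300 tested. After adjustment over all genes 1 of the 25 passed, ENSG00000120738, which was also the only one of the 6300 to pass. The median ranged from 0.91 without i14G1-12 1 to 1.80 without i14G1-12 2.

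The genes called in eIF1 complexes gave a similar picture for rises and a weaker one for falls. Of the 26 eIF1 risers tested in eIF3, 17 (65.4%) were above both controls in both treated libraries, against 12.5% of all genes tested. The median log2 fold change of the 26 was 1.22, against 0.02 for all genes tested. The median log2 ratio of these 26 genes was 1.48 for number 1, with 26 of 26 higher, against 3157 of all 6300 tested. For number 2 it was 0.93, with 22 of 26 higher, against 3212 of the 6300. The median level of the 26 genes was 102 and 114 CPM in DMSO 1 and 2, and 353 and 179 CPM in i14G1-12 1 and 2. In all 4 libraries, 9 of the 26 had 10 or more counts. The median of the fold changes ranged from 0.81 without i14G1-12 1 to 1.61 without DMSO 1. The eIF1 and eIF4G1 risers shared 7 genes, so these are not separate sets. Of the 11 eIF1 fallers, 5 (45.5%) were below both controls in both treated libraries, against 13.5% of all genes tested. Their median log2 fold change was -0.44, and it was 0.01 without DMSO 1.

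**Figure D3:**
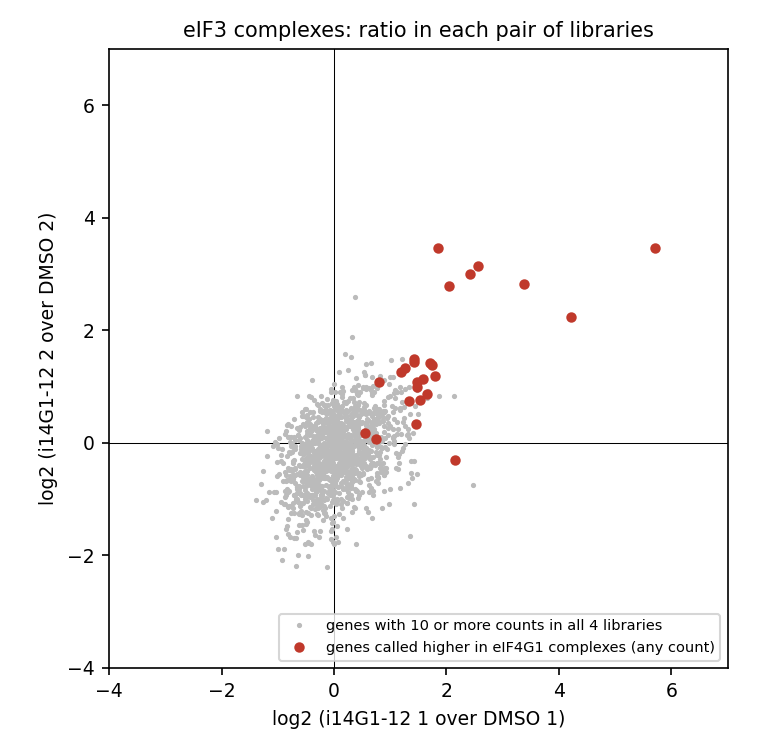
Each point is a gene in eIF3 complexes, with the log2 ratio of i14G1-12 1 over DMSO 1 on the x axis and of i14G1-12 2 over DMSO 2 on the y axis. Grey points are the 1424 genes with 10 or more counts in all 4 libraries. Red points are the 25 genes called higher in eIF4G1 complexes, of which 25 lie right of 0 and 24 above 0. They are drawn at any count, and 13 of the 25 had 10 or more counts in all 4 libraries.

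Single genes were also set side by side across the immunoprecipitations, each with its own DMSO libraries. ENSG00000120738 rose in eIF4G1 complexes by 4.66 on the log2 scale (SE 0.51, edgeR adjusted p = 8.37e-06), with mean levels of 7.69 ± 4.87 CPM in DMSO and 250 ± 148 CPM in i14G1-12 (SD, n = 3 each). In eIF1 complexes the rise was 3.32 on that scale (SE 0.43, edgeR adjusted p = 0.000328), between means of 8.20 ± 3.13 and 86.1 ± 39.4 CPM (SD, n = 3 each). It was too low to be tested in eIF2a complexes, with 0 counts in both controls and 6 and 7 in the treated libraries. The eIF3 value was the highest of the 3 tested, but the eIF3 effect minus the eIF4G1 effect was 1.64 with an SE of 1.08 (edgeR adjusted p = 0.999), so a difference between these effects was not resolved.

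ENSG00000177606 rose in eIF4G1 complexes by 2.77 on the log2 scale (SE 0.31, edgeR adjusted p = 1.19e-05), with means of 625 ± 144 CPM in DMSO and 4268 ± 1768 CPM in i14G1-12 (SD, n = 3 each). The eIF3 effect minus the eIF4G1 effect was -0.05 (SE 0.63). In eIF1 complexes the rise was 1.26 (SE 0.22, edgeR adjusted p = 0.0102), between means of 1082 ± 218 and 2598 ± 160 CPM (SD, n = 3 each). Its eIF2a levels overlapped between groups, and the treated group was 0.64 higher on the log2 scale (SE 0.43, edgeR adjusted p = 1.000). ENSG00000158864 had log2 fold changes of 0.07 in eIF1, -0.02 in eIF4G1 and 0.22 in eIF2a, none of which passed the test. The eIF2a value rests on controls with 51 and 0 counts, the total of eIF2a DMSO 2 being 10033 counts. The eIF3 effect minus the eIF4G1 effect was -1.64 (SE 0.62, edgeR adjusted p = 0.999), so a difference between the complexes was not shown for this gene. ENSG00000140990 was at -0.83 in eIF1, -0.54 in eIF4G1 and -0.12 in eIF2a, and none of these passed either.

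**Figure D4:**
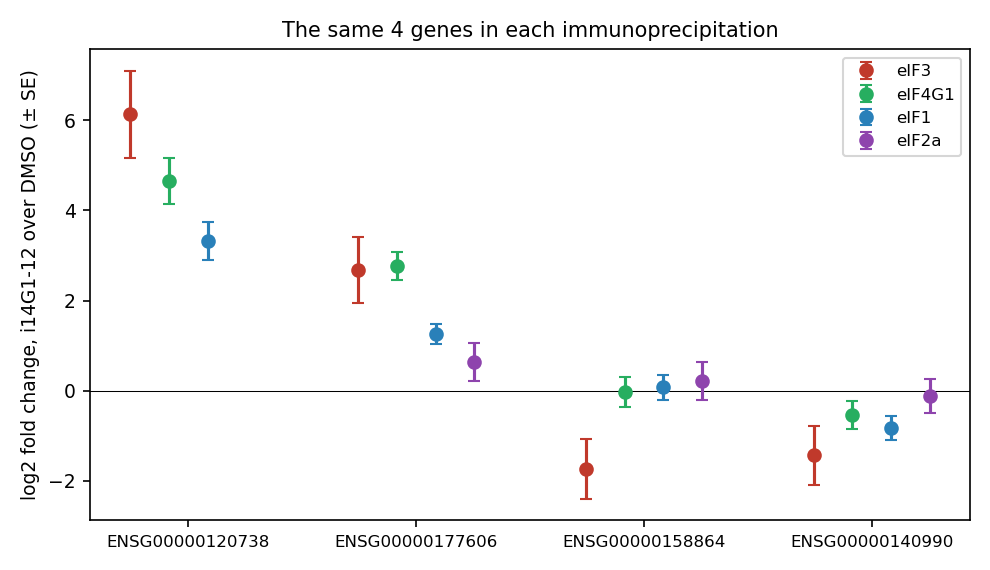
Log2 fold change of i14G1-12 over DMSO with its SE for 4 genes, in eIF3 (n = 2 libraries in each group), eIF4G1 and eIF1 (n = 3) and eIF2a (n = 2). ENSG00000120738 was not tested in eIF2a, and for ENSG00000177606 the eIF3 and eIF4G1 values nearly coincide at 2.69 and 2.77.

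Whether the response in eIF3 complexes differed from that in the others was tested for every gene in 1 fit to all 20 libraries. Of 9426 genes, 0 differed between the eIF3 effect and the mean of the eIF1, eIF4G1 and eIF2a effects by edgeR. Before adjustment 269 of them had a p under 0.05, against 471 expected if none differed. Between the eIF3 and eIF4G1 effects the count was also 0, and 295 genes had a p under 0.05 before adjustment. The mean of the others includes eIF2a, whose DMSO 2 library held 10033 counts and was left out in no setting. For ENSG00000120738, with 0 counts in both eIF2a controls, the difference from that mean was 1.32 with an SE of 15.1. Counts of 0 therefore do not show that the responses were alike. The smallest p on the higher side in both comparisons was that of ENSG00000133142, with a difference of 2.83 (SE 0.64, edgeR adjusted p = 0.378) from the mean of the others. That value came from 1 library. Its level was 159 CPM in DMSO 1, 438 in DMSO 2 and 208 in i14G1-12 1, but 2685 in i14G1-12 2, and without i14G1-12 2 the difference was 0.05. On the lower side the smallest p against the mean of the others was that of ENSG00000158864, at a difference of -1.81 (SE 0.55, edgeR adjusted p = 1.000). Without DMSO 2, 3 genes were called against the mean of the others, and without i14G1-12 1, 2 genes were called there and 2 against eIF4G1. ENSG00000133142 was among them each time (edgeR adjusted p = 0.0227, 8.35e-06 and 7.41e-05).

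The effect of i14G1-12 was also described against sequence length, given how far the library numbers differed in it. With genes in 5 equal groups by length, the median log2 fold change went from -0.24 in the shortest group to 0.24 in the longest. Set within library numbers, the same medians were -0.10 and 0.13 for number 1 and -0.20 and 0.13 for number 2. Spearman's rho across genes between length and log2 fold change was 0.27 over the 4 libraries, but 0.13 within number 1 and 0.12 within number 2. It turned to -0.16 without DMSO 1 and to -0.11 without i14G1-12 2, so the pooled value rests on which numbered libraries enter. In the shortest group 95 of 1260 genes (7.54%) were above both controls in both treated libraries and 244 (19.4%) below both. In the longest group these were 171 (13.6%) and 77 (6.11%), and over all genes tested 12.5% and 13.5%. The share above both controls did not climb steadily with length, since it lay between 13.3% and 14.1% in every group but the shortest.

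ENSG00000103534 had the largest mean share of the eIF3 counts, at 1.34% in DMSO 1, 2.30% in DMSO 2, 2.39% in i14G1-12 1 and 1.99% in i14G1-12 2. Its groups overlapped, and its log2 fold change was 0.39 (SE 0.85, edgeR adjusted p = 1.000). It was as prominent elsewhere, at 0.754% to 2.82% over the 16 libraries of the other immunoprecipitations. ENSG00000187837, a short sequence of 731 nt, came second, at 0.525% in DMSO 1 and 0.772% in i14G1-12 1 but 0.289% and 0.310% in the libraries numbered 2. The 10 genes with the largest mean share held 4.86% and 4.62% of counts in DMSO 1 and 2, and 7.08% and 4.65% in i14G1-12 1 and 2. For such single values 2 libraries against 2 cannot reach a two-sided exact permutation p below 0.333.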

How the data were processed

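The authors deposited raw counts for each gene, in 1 table for each immunoprecipitation. The tools named are featureCounts, HISAT2, Bowtie, Trimmomatic and cutadapt, on hg38, per the submitters' processing notes, which list no version. Per the file headers, reads were counted on 1 sequence per Ensembl ID, and the length in nt is that of this sequence. The treatment of multi-mapping reads and of strand was not given in the sources used here, so near-identical and overlapping genes are uncertain.

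Counts were fitted with edgeR 4.0.16 in R 4.3.3 (filterByExpr with a minimum count of 10, TMM scaling, quasi-likelihood test, Benjamini-Hochberg threshold 0.05), the eIF3 comparison on its 4 libraries and differences between effects on all 20. Each SE was derived from the log2 fold change and its F statistic. DESeq2 1.42.0 and other settings were alternatives. Scripts were tested on simulated data. Non-overlap used log2 CPM with a prior count of 2. The rule for single genes took those past the threshold, the 12 widest gaps between groups in each direction (10 or more counts in both libraries of the higher group) and the 10 largest shares of counts. Because the IDs have no names, only the first 2 of each are printed. ENSG00000133142 and ENSG00000178951, with the smallest p in a direction of the effect differences, fall outside that rule and were chosen after their values were seen. All 29 gene lists and marker lists needed names and were not run. The genes, lists and tests were chosen with earlier results of these data known.

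Columns were assigned by name. The eIF3 replicates differed by more than counting noise (chi-square over degrees of freedom 6.73 for i14G1-12 and 3.49 for DMSO), so none was counted as a duplicate.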

Additional observations from a re-analysis of the deposited data

How the results depend on the processing

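The count of 1 changed gene stayed with DESeq2 size factors and at a minimum count of 30. It became 0 with total counts only, 2 with no filter, 3 by the DESeq2 test, 5 with all 20 libraries in 1 fit and 0 to 3 leaving out each library (0 without DMSO 1, 3 without i14G1-12 2). With the replicate number as a block it became 38, of which 35 were higher. In that fit 774 of the 6300 genes had an edgeR p under 0.05 before adjustment, against 110 in the main fit. Deviations from the group means correlated between libraries of the same number at 0.56 over the genes tested and at 0.79 over the 1424 genes with 10 or more counts in all 4. Over only 2 numbers this does not establish pairing. The counts of differing effects stayed at 0 with total counts only, a minimum count of 30 and the replicate block, and leaving out each eIF3 library gave 0 to 3 against the mean of the others and 0 to 2 against eIF4G1. The length rho of 0.27 was 0.21 at a minimum count of 30, 0.16 with the replicate block and -0.16 to 0.47 leaving out each library, reversing without DMSO 1 (-0.16) and without i14G1-12 2 (-0.11). The median of the eIF1 fallers reversed without DMSO 1 (0.0107), with a range down to -0.668; these list alternatives were chosen after the data were seen. For the 4 genes with the widest gaps, 39 of 44 values under alternatives kept their direction and call, 2 were no longer called (ENSG00000120738) and 3 became called (ENSG00000177606, with the replicate block at edgeR adjusted p = 0.000553). The eIF3 effect of ENSG00000178951 minus its eIF4G1 effect was -5.30 (edgeR adjusted p = 0.999), where 1 eIF4G1 library held 799 counts. The cause of these moves was not tested. The alternatives for medians of gene lists by name were not run. The 59179 counts of DMSO 2 limit every value for lower genes.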
